A study of Mus musculus with 8 samples.

Results

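The genes described here are 10 markers of the testis, which lies beside the epididymal duct in the mouse embryo, and of the adrenal: Star, Cyp11a1, Cyp17a1, Hsd3b1, Insl3, Nr5a1, Sox9, Dmrt1, Ddx4 and Gata4. They were chosen by symbol as a check of neighbouring tissue in each dissection, and all 10 were found among the 46517 genes of the deposited table. The study measured RNA in epididymal ducts dissected at E18.5 (late gestation) and also called Wolffian ducts in the labels, in 4 libraries labelled Ptk7 conditional knockout (cKO, numbered 1, 2, 4 and 5) and 4 control libraries (numbered 1, 3, 4 and 6). The cKO embryos carried a floxed Ptk7 allele over the disrupted Xst87 allele, and the controls carried a floxed Ptk7 allele over a wild-type allele. All embryos of both groups also carried the T-Cre transgene and the mT/mG allele, a membrane-Tomato and membrane-EGFP reporter. T-Cre uses regulatory sequence of the gene T (brachyury) and acts in early mesoderm. The labels do not say whether each library is 1 embryo, a litter or a pool, so the p-values below measure the spread between these libraries, which may be partly technical.

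Steroid hormones are made from cholesterol in a fixed order of steps. STAR carries cholesterol into the mitochondrion, CYP11A1 cuts its side chain to give pregnenolone, and HSD3B1 and CYP17A1 carry the product on towards androgens in the fetal Leydig cell of the testis. The adrenal cortex shares the early steps and ends in corticosteroids made by CYP21A1 and CYP11B1. The nuclear receptor NR5A1 (steroidogenic factor) drives these genes in both organs. Fetal Leydig cells also secrete INSL3, which guides descent of the testis. SOX9, DMRT1 and GATA4 are transcription factors of the Sertoli cell, the supporting cell of the testis cord, and SOX9 and GATA4 are also made in many other fetal tissues. DDX4 is an RNA helicase of germ cells.

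Libraries held 24807970 to 29590547 counts, so that 3 counts, taken as the floor of what a library can show, correspond to 0.101 to 0.121 CPM (counts scaled to the size of the library). Ptk7 itself stood at 7.32, 7.59, 12.5 and 194 CPM in the libraries labelled Ptk7 cKO 1, 2, 4 and 5, against 189, 112, 313 and 168 CPM in controls 1, 3, 4 and 6. The library labelled Ptk7 cKO 5 thus held 99.2% of the control mean and goes against its label, so that cKO below is the name of a label and cKO 5 means the library labelled Ptk7 cKO 5. Its values are part of each cKO mean, and key results are also given without it. With it, Ptk7 had a log2 fold change of -1.82 (SE 0.95, edgeR adjusted p = 0.655), and without it -4.42 (edgeR adjusted p = 0.00805). Mitochondrial genes took 1.82% of its counts, against 2.37% to 3.47% in the other 7 libraries. Control 3 also stood apart: its counts differed from those of the other 7 libraries by a chi-square per degree of freedom of 65.4 to 95.5, against 15.5 to 37.0 for all pairs without it, and it had the highest mitochondrial share (3.47%). The part of these library differences in the results was not tested. Duct genes were read in every library: all 16 genes of a duct epithelium list passed the filter on low counts. Epcam and Krt8, the most abundant of them in CPM, averaged 124 and 131 CPM per kilobase of summed exon length. All 8 libraries also carried Y-linked RNA, with Ddx3y at 75.3 to 95.5 CPM in cKO and 77.5 to 88.7 CPM in control libraries, and Xist had at most 6 counts in any library.

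NR5A1 binds sites with the core AGGTCA, and GATA factors bind sites that include AGATAA. Both words were searched on both strands of the 250 bases before each start in the RefSeq promoter table (GRCm38.p6), which matched 4 of the 10 genes: Cyp11a1, Hsd3b1, Insl3 and Ddx4. The 3 windows below are shown because they belong to the most abundant steroidogenic gene (Cyp11a1) and to the 2 genes nearest to 0 (Hsd3b1 and Insl3). Cyp11a1 also has a second window, named below, and the window printed is that with a match. It lies inside the deposited Cyp11a1 gene, which begins at 58006411, and neither window ends at that position. Capitals mark a match to either word. The Cyp11a1 window lies on the plus strand (chr9:58014702-58014951), the Hsd3b1 window on the minus strand (chr3:98859795-98860044) and the Insl3 window on the plus strand (chr8:71689002-71689251).
Cyp11a1: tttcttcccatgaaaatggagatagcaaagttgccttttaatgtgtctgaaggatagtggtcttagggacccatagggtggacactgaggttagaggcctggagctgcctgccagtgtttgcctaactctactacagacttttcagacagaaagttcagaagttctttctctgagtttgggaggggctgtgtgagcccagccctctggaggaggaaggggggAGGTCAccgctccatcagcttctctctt
Hsd3b1: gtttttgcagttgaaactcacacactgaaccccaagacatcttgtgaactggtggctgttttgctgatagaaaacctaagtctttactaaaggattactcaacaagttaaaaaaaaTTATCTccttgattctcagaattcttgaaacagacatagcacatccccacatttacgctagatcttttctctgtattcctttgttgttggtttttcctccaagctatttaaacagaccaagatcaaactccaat
Insl3: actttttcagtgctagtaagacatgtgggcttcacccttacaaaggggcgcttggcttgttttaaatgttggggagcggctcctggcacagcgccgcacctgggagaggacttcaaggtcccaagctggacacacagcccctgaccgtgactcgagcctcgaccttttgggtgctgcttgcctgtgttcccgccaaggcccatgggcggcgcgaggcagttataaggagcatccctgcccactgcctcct
The printed Cyp11a1 window held 1 AGGTCA, beginning 28 bases before its RefSeq start. The Hsd3b1 window held 1 AGATAA on the opposite strand, written TTATCT here and beginning 134 bases before the start. The words were found in neither strand of the Insl3 and Ddx4 windows, nor in the window of a second RefSeq start of Cyp11a1 (chr9:57997774-57998023). The 2 words do not overlap one another. AGGTCA was found in 14.02% and AGATAA in 9.99% of 32851 promoter windows of the same length, and a match is a description of the letters only.

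The genes that mark a hormone-producing Leydig cell were almost without reads. Insl3 (ENSMUSG00000079019, chromosome 8, 71689214 to 71690575 in the deposited GRCm38 coordinates) had 0, 0, 1 and 0 counts in the libraries labelled Ptk7 cKO 1, 2, 4 and 5. In controls 1, 3, 4 and 6 it had 1, 0, 0 and 0 counts. Hsd3b1 (ENSMUSG00000027871, chromosome 3, 98852194 to 98859794) had 0, 0, 1 and 0 counts in the cKO libraries and 2, 0, 0 and 0 counts in controls. No library of either group therefore passed the floor for these 2 genes, and no fold change is given. Insl3 overlaps Jak3, which lies on the same strand, in the GENCODE annotation. The other Hsd3b genes, which are alike in sequence and could share reads with Hsd3b1, were also low: Hsd3b2, Hsd3b3, Hsd3b4, Hsd3b5 and Hsd3b6 had 5, 6, 2, 0 and 6 counts summed over all libraries.

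Cyp17a1, the enzyme that opens the androgen branch, was also close to the floor (ENSMUSG00000003555, chromosome 19, 46667165 to 46672974). It had 3, 4, 2 and 3 counts in cKO libraries 1, 2, 4 and 5 and 2, 5, 0 and 4 counts in controls 1, 3, 4 and 6. Control 4 had none and the groups overlapped (0.117 ± 0.031 CPM in cKO, 0.098 ± 0.075 CPM in control, SD, n = 4 each). It did not pass the filter on low counts, and in the edgeR fit without that filter its log2 fold change was 0.23 (SE 0.77, edgeR adjusted p = 0.949). Of other genes in the Leydig cell list, Hsd17b3, which makes testosterone, had 1 count in the cKO group and 0 in the control group, and Lhcgr, the luteinizing hormone receptor, had 5 and 12 counts.

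**Figure D1:**
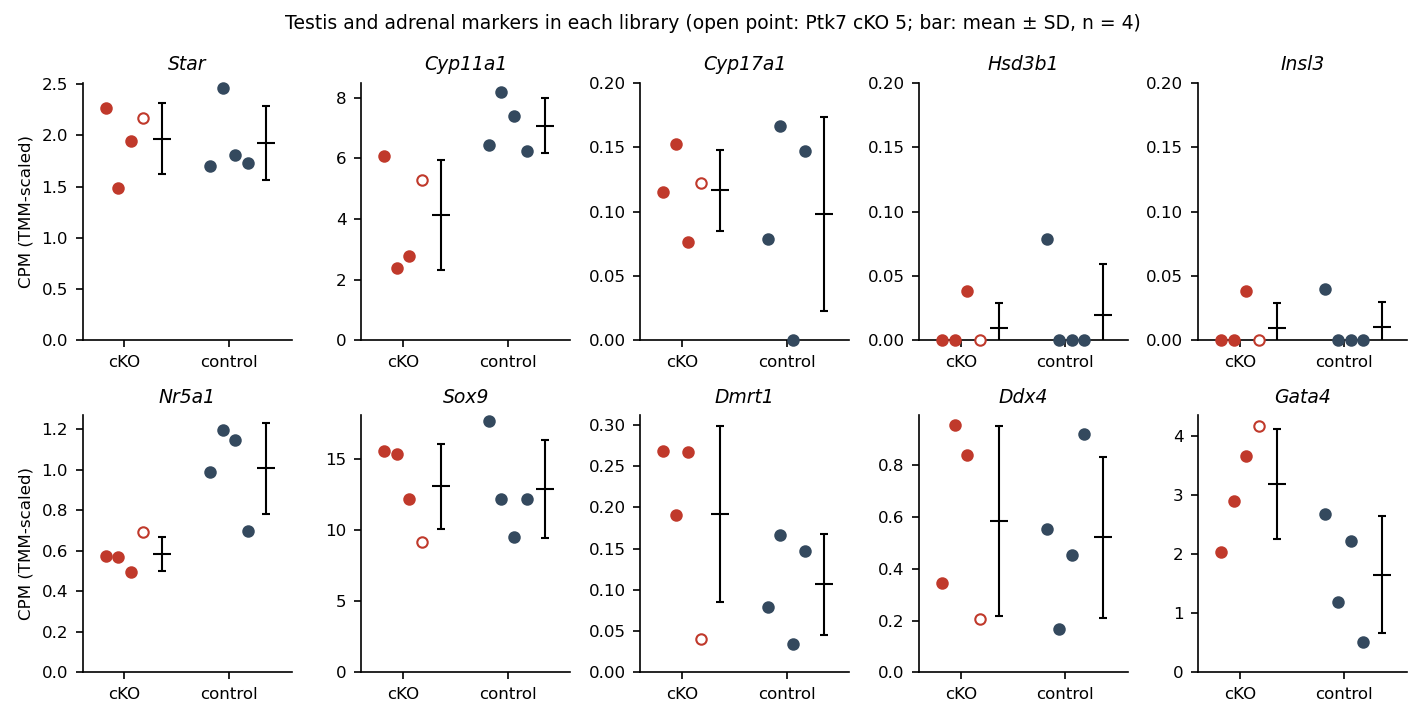
Level of each of the 10 markers in every library, in CPM scaled by TMM factors, with a separate axis from 0 in each panel. Red points are libraries labelled Ptk7 cKO (open for number 5) and dark points are controls, with the mean ± SD of 4 libraries beside them (bars cut at 0). Cyp11a1 and Nr5a1 are the 2 panels in which the cKO and control points do not overlap, and Hsd3b1 and Insl3 are at 0 in 6 of 8 libraries.

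The early steroidogenic genes, in contrast, had reads in every library. Cyp11a1 (ENSMUSG00000032323, chromosome 9, 58006411 to 58027023) stood at 6.06, 2.36, 2.78 and 5.27 CPM in cKO libraries 1, 2, 4 and 5. In controls 1, 3, 4 and 6 it stood at 6.44, 8.18, 7.41 and 6.25 CPM. Every cKO value lay under every control value, but cKO 1 (6.06 CPM) lay close to control 6 (6.25 CPM). The mean was 4.12 ± 1.82 CPM in cKO and 7.07 ± 0.90 CPM in control (SD, n = 4 each). The log2 fold change was -0.78 (SE 0.28), which did not pass over all 16469 genes tested (edgeR unadjusted p = 0.0167, adjusted p = 0.464; DESeq2 adjusted p = 0.181). The library labelled Ptk7 cKO 5, whose Ptk7 level was that of a control, lay under every control for Cyp11a1. At 5.27 CPM it was nearer to control 6 (6.25 CPM) than to cKO 2 and 4 (2.36 and 2.78 CPM). Without cKO 5 the log2 fold change was -0.92 (edgeR adjusted p = 0.418). Control 3, which stood apart from the other libraries, was highest for Cyp11a1, and without it the log2 fold change was -0.70 (edgeR adjusted p = 0.669). A long non-coding RNA gene, Gm17322, overlaps Cyp11a1 on the same strand, and how the counting treated shared reads is not known here.

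Nr5a1 (ENSMUSG00000026751, chromosome 2, 38692656 to 38714542), the regulator of these genes, was low in counts and likewise lower in the cKO label. It had 15, 15, 13 and 17 counts in cKO libraries 1, 2, 4 and 5, against 25, 36, 33 and 19 counts in controls 1, 3, 4 and 6. As CPM these were 0.575, 0.572, 0.496 and 0.695 in cKO and 0.987, 1.20, 1.15 and 0.698 in control. The groups did not overlap, but by a margin smaller than 1 count: cKO 5 and control 6 differ in the third digit. The log2 fold change was -0.79 (SE 0.26, edgeR unadjusted p = 0.0118, adjusted p = 0.409; DESeq2 adjusted p = 0.454), and without cKO 5 it was -0.88 (edgeR adjusted p = 0.43). Control 3 was again the highest library, and without it the value was -0.69 (edgeR adjusted p = 0.657). An antisense gene, Nr5a1os, overlaps Nr5a1, and since the strand setting of the counting is not given in the sources used here, its reads cannot be told apart from those of Nr5a1.

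Star (ENSMUSG00000031574, chromosome 8, 25808474 to 25814723), which acts one step before CYP11A1, did not show this difference. It stood at 2.26, 1.49, 1.95 and 2.17 CPM in cKO libraries 1, 2, 4 and 5, against 1.70, 2.46, 1.81 and 1.73 CPM in controls 1, 3, 4 and 6. The lowest value was in a cKO library and the highest in a control library, and the groups overlapped throughout. Means were 1.97 ± 0.35 CPM in cKO and 1.92 ± 0.36 CPM in control (SD, n = 4 each), with a log2 fold change of 0.027 (SE 0.21, edgeR adjusted p = 0.98). Its sign turned when single libraries were left out (-0.047 to 0.17; -0.022 without cKO 5, 0.17 without control 3).

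The ratio of Cyp11a1 to Star, each in CPM per kilobase, was 1.55, 0.922, 0.83 and 1.41 in cKO libraries 1, 2, 4 and 5. It was 2.20, 1.93, 2.38 and 2.10 in controls 1, 3, 4 and 6. All cKO ratios lay under all control ratios, so the 2 genes did not keep a fixed proportion across the libraries. The ratio was formed after the values had been seen and is given with no test. It reuses the Cyp11a1 values, which already did not overlap between the groups, and is not a separate result. How often ratios of other gene pairs separate the groups was not counted. The ratio of Cyp11a1 to Nr5a1 ranged from 3.65 to 9.30 in cKO and from 5.70 to 7.90 in control libraries, with overlap.

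**Figure D2:**
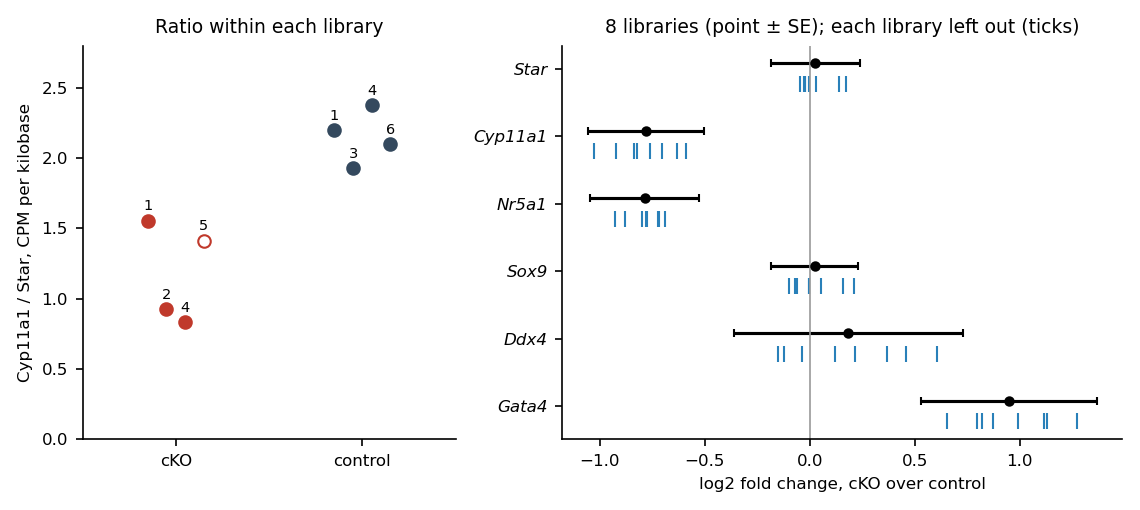
Left, the ratio of Cyp11a1 to Star in CPM per kilobase in each library, labelled by its number (open point, cKO 5); all 4 cKO ratios lie under the lowest control ratio of 1.93. Right, log2 fold change of cKO over control for the 6 markers tested, as the edgeR estimate ± SE over 8 libraries (black) and with each library left out in turn (blue ticks); the Star, Sox9 and Ddx4 ticks fall on both sides of 0.

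Of the Sertoli cell regulators, Sox9 was the most abundant of all 10 markers and Dmrt1 was close to the floor. Sox9 (ENSMUSG00000000567, chromosome 11, 112782224 to 112787760) stood at 15.6, 15.3, 12.2 and 9.20 CPM in cKO libraries 1, 2, 4 and 5. In controls 1, 3, 4 and 6 it stood at 17.7, 12.2, 9.53 and 12.2 CPM. The groups overlapped throughout, with means of 13.1 ± 3.01 CPM in cKO and 12.9 ± 3.41 CPM in control (SD, n = 4 each). The log2 fold change was 0.023 (SE 0.21, edgeR adjusted p = 0.983; 0.16 without cKO 5, -0.0018 without control 3), and its sign turned with single libraries left out (-0.10 to 0.21). Dmrt1 (ENSMUSG00000024837, chromosome 19, 25505618 to 25604329), which is more restricted to the gonad, had 7, 5, 7 and 1 counts in cKO libraries 1, 2, 4 and 5 and 2, 5, 1 and 4 counts in controls 1, 3, 4 and 6. The groups overlapped, and in the edgeR fit without a filter on low counts the log2 fold change was 0.82 (SE 0.67, edgeR adjusted p = 0.745). Per kilobase, Sox9 averaged 3.14 ± 0.72 CPM and Dmrt1 0.0575 ± 0.0357 CPM (SD over 8 libraries).

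Gata4 (ENSMUSG00000021944, chromosome 14, 63198922 to 63271692) differed 8.10-fold between its highest and its lowest library, and Ddx4 5.73-fold. It stood at 2.03, 2.90, 3.66 and 4.17 CPM in cKO libraries 1, 2, 4 and 5, against 2.69, 1.20, 2.23 and 0.514 CPM in controls 1, 3, 4 and 6. The 3 highest values were cKO libraries and the 2 lowest were controls, while cKO 1 lay inside the control range. The mean was 3.19 ± 0.93 CPM in cKO and 1.66 ± 0.98 CPM in control (SD, n = 4 each), and the log2 fold change was 0.95 (SE 0.42). This did not pass over all genes (edgeR unadjusted p = 0.0449, adjusted p = 0.586; DESeq2 adjusted p = 0.376). It ranged between 0.65 (without control 6) and 1.27 (without control 1) with single libraries left out, and was 0.80 without cKO 5, its highest library, and 0.82 without control 3. Wt1, a mesothelial and gonadal transcription factor, was also higher in cKO (116 ± 9.38 CPM, against 86.3 ± 2.24 CPM in control, SD, n = 4 each), and its part in the Gata4 values was not tested.

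Ddx4 (ENSMUSG00000021758, chromosome 13, 112598333 to 112652310), the germ cell marker, was detected in every library at a few counts. It had 9, 25, 22 and 5 counts in cKO libraries 1, 2, 4 and 5 and 14, 5, 13 and 25 counts in controls 1, 3, 4 and 6. High and low libraries occurred in both groups. The log2 fold change was 0.18 (SE 0.55, edgeR adjusted p = 0.943; 0.46 without cKO 5, -0.12 without control 3), and DESeq2 gave no adjusted p. Other genes of the germ cell list lay on both sides of Ddx4, which had 61 counts over the cKO group and 57 over the control group. Tdrd1 had 222 and 300 counts, Nanos3 150 and 148, and Dnd1 101 and 81. Dazl, which encodes a germ cell RNA-binding protein, had 13 counts over the cKO group and 7 over the control group, Dppa3 had 0 and 1, and Nanos2, a marker of male fetal germ cells, had 0 in all libraries.

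In all, 6 of the 10 markers passed the filter on low counts (Star, Cyp11a1, Nr5a1, Sox9, Ddx4 and Gata4) and 4 did not (Cyp17a1, Hsd3b1, Insl3 and Dmrt1). None of the 6 passed an adjusted p of 0.05 in edgeR, where 0% of 16469 genes were called. None passed in DESeq2 either, which gave an adjusted p for 5 of them and called 1.2% of 15502 genes. At an unadjusted edgeR p under 0.05, Gata4 was higher (3.5% of all genes were) and Cyp11a1 and Nr5a1 were lower (4.87% of all genes were; 8.37% in either direction). The 2 markers whose groups did not overlap, Cyp11a1 and Nr5a1, were both lower, as were 3.1% of all genes, and 5.75% of all genes did not overlap in either direction. The median log2 fold change of the 6 was 0.025, beside 0.0055 over all genes tested. In bulk RNA, fewer cells of a type and less RNA per cell cannot be told apart. Duct epithelium genes were lower in the same libraries (9 of 16 at an unadjusted edgeR p under 0.05, 2 higher, median log2 fold change -0.34, none past an adjusted p of 0.05). Ros1, a receptor of the duct epithelium, was 5.95 ± 0.53 CPM in cKO and 9.46 ± 0.81 CPM in control, and Lhx1, a transcription factor of the duct, 24.4 ± 3.25 CPM and 38.9 ± 6.15 CPM (SD, n = 4 each). The summed level of the duct list was 1092 to 1491 CPM in cKO and 1262 to 1503 CPM in control libraries, and its part in the lower Cyp11a1 and Nr5a1 values was not tested.

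Per kilobase, the mean levels over 8 libraries ran in the order Sox9 (3.14 CPM), Cyp11a1 (1.16), Star (0.698), Gata4 (0.621), Ddx4 (0.194), Nr5a1 (0.188), Dmrt1 (0.0575), Cyp17a1 (0.0496), Insl3 (0.0156) and Hsd3b1 (0.00789). Sox9 was above Cyp11a1 in all 8 libraries and Nr5a1 above Dmrt1 in all 8. Neighbours that did not separate were Star and Gata4 (Star higher in 4 of 8), Ddx4 and Nr5a1 (Ddx4 higher in 3), Dmrt1 and Cyp17a1 (Dmrt1 higher in 4) and, with most libraries at 0, Insl3 and Hsd3b1 (Insl3 higher in 2). Cyp11a1 exceeded Star in 6 libraries, the exceptions being cKO 2 and 4, and Gata4 exceeded Ddx4 in 7.

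**Figure D3:**
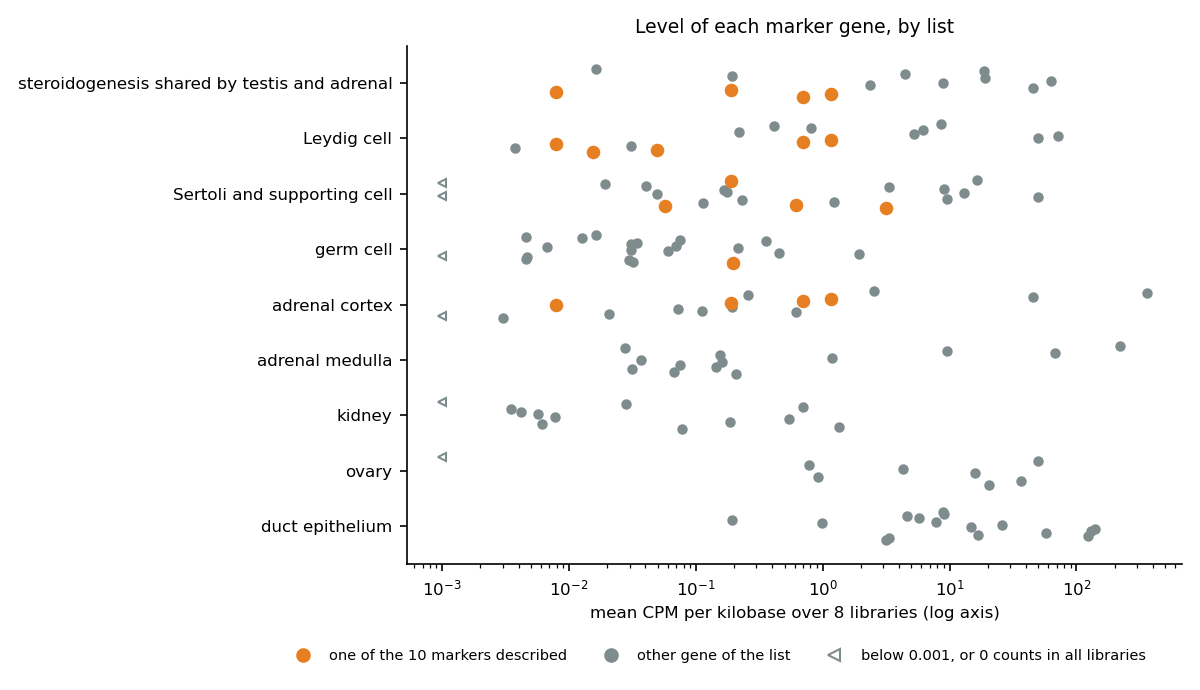
Mean level over 8 libraries of every gene in 9 marker lists, in CPM per kilobase of summed exon length on a log axis, with the 10 markers in orange and genes at 0 in all libraries as open triangles at the left edge. Duct epithelium genes reach 140.3 CPM per kilobase (Krt18) and Dlk1 of the adrenal cortex list 359, whereas Hsd3b1, Insl3, Cyp17a1 and Dmrt1 lie under 0.1.

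The wider lists of testis and adrenal genes include some of the 10 markers themselves and share genes with one another. Among genes lower at an unadjusted edgeR p under 0.05, Cyp11a1 is counted in the steroidogenesis, Leydig cell and adrenal cortex lists. Nr5a1 is counted in the steroidogenesis, Sertoli and adrenal cortex lists. Beside each list count, 3.5% of all genes tested were higher and 4.87% lower at that threshold. Of 13 steroidogenesis genes, 10 were tested, and at an unadjusted edgeR p under 0.05 there were 1 higher and 2 lower (Cyp11a1 and Nr5a1). The median log2 fold change was 0.0074. Its summed level was 387 to 479 CPM in cKO and 401 to 443 CPM in control libraries, and Cyb5a, a cytochrome of many tissues, was among its most abundant genes. Por, the electron donor of microsomal P450 enzymes, was higher in cKO with overlap (84.4 ± 6.79 CPM, against 69.5 ± 7.80 CPM in control, SD, n = 4 each, edgeR adjusted p = 0.409). Nr0b1, a nuclear receptor of gonad and adrenal, had 41 counts over the cKO group and 33 over the control group.

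Of 15 Leydig cell genes, 10 were tested, with 3 higher and 2 lower at an unadjusted edgeR p under 0.05 and a median log2 fold change of 0.08. The summed level (958 to 1095 CPM in cKO, 1067 to 1324 CPM in control) was almost wholly 2 mesenchymal genes, Pdgfra and Thbs2 (92.0%). The 5 members under 0.5 CPM in every library were Insl3, Cyp17a1, Hsd17b3, Lhcgr and Hsd3b1. Prlr, the prolactin receptor, had the smallest p of the list (4.08 ± 0.30 CPM in cKO, 2.69 ± 0.73 CPM in control, SD, n = 4 each, edgeR adjusted p = 0.409).

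Of 20 Sertoli and supporting cell genes, 12 were tested, with 3 higher and 2 lower at an unadjusted edgeR p under 0.05 and a median of -0.08. Wt1 and Cldn11, a tight junction gene also found outside the testis, held 73.8% of the summed level (256 to 284 CPM in cKO, 232 to 275 CPM in control). The 8 members under 0.5 CPM in every library included Dmrt1, Amh, Fshr, Sry and Rhox8. Amh, the hormone that Sertoli cells use to remove the Müllerian duct, had 22 counts over the cKO group and 18 over the control group, and Fshr and Sry had 0 in every library. Wt1 had the smallest p of the list (log2 fold change 0.43, SE 0.07, edgeR adjusted p = 0.161) and was past the DESeq2 threshold (adjusted p = 0.000135).

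Of 20 germ cell genes, 5 were tested and none was under an unadjusted edgeR p of 0.05 (median 0.18). The summed level of the list was 5.02 to 9.15 CPM in cKO and 5.56 to 8.17 CPM in control libraries, and 55.8% of it lay in Tdrd1 and Nanos3. Tdrd1, of the piRNA pathway, averaged 2.16 ± 1.03 CPM in cKO and 2.72 ± 0.63 CPM in control, and Nanos3 1.45 ± 0.32 CPM and 1.37 ± 0.77 CPM (SD, n = 4 each). The 2 with the smallest p were Piwil2 (0.418 ± 0.075 CPM in cKO, 0.267 ± 0.125 CPM in control) and Dnd1 (0.98 ± 0.317 CPM and 0.729 ± 0.228 CPM), with edgeR adjusted p of 0.692 and 0.749.

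The enzymes that define the adrenal cortex were absent or nearly so. Cyp11b2, the aldosterone synthase, had 0 counts in every library, Cyp11b1 had 2 in the cKO group and 0 in the control group, and Cyp21a1 had 6 and 3. Mc2r, the corticotropin receptor, passed the filter on low counts, with 83 counts over the cKO group and 123 over the control group (0.808 ± 0.304 CPM and 1.10 ± 0.065 CPM, SD, n = 4 each, edgeR adjusted p = 0.703). Agtr1b, an angiotensin receptor, also passed it, with 70 and 47 counts (0.677 ± 0.172 CPM and 0.425 ± 0.206 CPM, SD, n = 4 each, edgeR adjusted p = 0.682). Of the 15 genes 8 were tested, with a median of 0.07. At an unadjusted edgeR p under 0.05 there were 1 higher and 2 lower, the latter again Cyp11a1 and Nr5a1. Dlk1, a fetal growth gene made in many mesenchymal cells, and Fdx1, the electron carrier of mitochondrial P450 enzymes, held 99.0% of the summed level (1843 to 2553 CPM in cKO, 1661 to 2426 CPM in control). Kcnk3, a potassium channel, was 12.3 ± 2.62 CPM in cKO and 8.01 ± 2.19 CPM in control (SD, n = 4 each, edgeR adjusted p = 0.432).

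Among 13 adrenal medulla genes, 6 were tested, with 1 higher and 1 lower at an unadjusted edgeR p under 0.05 and a median of 0.25. Pnmt, which makes adrenaline and defines the medulla, had 3 counts in the cKO group and 5 in the control group, and Dbh, one step before it, had 20 and 19. Gata2 and Npy made up 94.4% of the summed level (489 to 543 CPM in cKO, 514 to 531 CPM in control). Hand2, a transcription factor of sympathetic cells and mesenchyme, was 26.2 ± 1.89 CPM in cKO and 16.6 ± 4.27 CPM in control (SD, n = 4 each, edgeR adjusted p = 0.295; DESeq2 adjusted p = 0.0284). Npy, a neuropeptide, was 103 ± 16.3 CPM in cKO and 145 ± 31.5 CPM in control (SD, n = 4 each, edgeR adjusted p = 0.383).

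Kidney and ovary genes were read in the same way. Of 12 kidney genes 5 were tested, with 1 higher and 0 lower at an unadjusted edgeR p under 0.05 (3.5% and 4.87% of all genes were). The log2 fold change was below 0 for 4 of the 5 and above 0 for 1 (median -0.10). The summed level of the kidney list was 9.73 to 18.6 CPM in cKO and 14.4 to 22.5 CPM in control libraries. Lrp2, an endocytic receptor, and Cited1 held 84.3% of it, and Kap had 0 counts. Of 8 ovary genes 7 were tested, with 1 higher and 0 lower at the same threshold. The log2 fold change was above 0 for 6 of the 7 and below 0 for 1 (median 0.09). Nr2f2 and Rspo1 held 73.8% of a sum of 437 to 465 CPM in cKO and 366 to 437 CPM in control libraries. Figla, of the oocyte, had 0 counts in these libraries, all of which carried Y-linked RNA. Foxl2, another gene of the ovary list, was 25.7 ± 3.09 CPM in cKO and 25.3 ± 6.97 CPM in control (SD, n = 4 each, edgeR adjusted p = 0.982). Wnt4, the 1 that was higher at that threshold, was 77.8 ± 1.45 CPM in cKO and 55.3 ± 7.96 CPM in control (SD, n = 4 each, edgeR adjusted p = 0.161; DESeq2 adjusted p = 0.00209).

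Genes with the pattern most like each marker over the 8 libraries were named for the 4 markers with a mean of at least 1 CPM, by Pearson r of log2 CPM among 13255 genes. For Cyp11a1 they were Tes (r = 0.97), Prkcq (0.97) and Ecd (0.95). For Ecd r was 0.82 without the 2 libraries farthest from the Cyp11a1 median. Prkcq, a protein kinase C, had 2.65 CPM in cKO and 4.47 CPM in control on average (log2 fold change -0.76, SE 0.20, edgeR adjusted p = 0.295; DESeq2 adjusted p = 0.044). It was picked because it follows Cyp11a1, so a like group difference comes with that choice and adds nothing to the Cyp11a1 result. For Gata4 they were Trim21 (r = 0.98), Agap1 (0.96) and Lhx9 (0.96), the last a transcription factor of the early gonad, for which r was 0.70 without the 2 libraries farthest from the Gata4 median. For Star they were Ttc4 (r = 0.97), Rwdd1 (0.96) and Tmem177 (0.96), and for Sox9 Pgrmc1 (0.94), Slc2a4 (0.92) and Hoxa2 (0.92). These are the highest of many values searched over 8 libraries, the points share their libraries and depth, and these values are given as a description.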

How the data were processed

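RNA sequencing was done on 8 libraries of epididymal ducts from E18.5 embryos. Per the labels' protocols, total RNA was taken with a column kit and TruSeq libraries were run on a HiSeq instrument. Per the submitters' processing notes, STAR, featureCounts and GRCm38 were used; their versions, the strand setting, how multi-mapped reads were handled and which annotation was used are not stated in these sources. Raw counts, not normalized, were deposited for each gene, beside its exon length in bases (unit other), used here for levels per kilobase. Symbols were matched by Ensembl identifier for 46005 of 46517 genes, and 19945 genes were at 0 in every library.

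The counts were tested with edgeR 4.0.16 in R 4.3.3 (TMM factors, filterByExpr and the quasi-likelihood test of group in a fit to 8 libraries, with Benjamini-Hochberg adjustment over 16469 genes). SEs are approximate, from the log2 fold change and the F statistic. CPM is scaled by TMM factors. The code was tested on simulated counts. Floors cover counting error only. No 2 libraries agreed within counting error (28 pairs, chi-square/df 15.5 to 95.5).

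The members and the 10 marker lists (127 genes in all) were chosen with earlier results of these data known. Named genes are the 10 markers, Ptk7, the 2 most abundant and the 2 with the smallest p in each list, the 3 genes most like each marker, and Xist and Ddx3y (2 genes that this rule names are not reported here); other genes of the lists that are named were chosen after their values were seen. Alternatives were DESeq2 1.42.0, DESeq2 size factors in edgeR, voom with quality weights in limma 3.58.1, other filters, a replicate block and leaving out each library; DESeq2 without the library labelled Ptk7 cKO 5 was added after seeing the data.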

Additional observations from a re-analysis of the deposited data

Results flagged for a closer look

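Among 38 groups of 4 values (the markers with more than 3 counts in a library, Ptk7 and the summed level of each list), 2 held a library far from the other 3. Chance flags about 1 in 20 such groups. Ptk7 stood at 194 CPM in the library labelled Ptk7 cKO 5, with the other cKO libraries at 7.32 to 12.5 CPM. Star stood at 2.46 CPM in control 3, with the other controls at 1.70 to 1.81 CPM, and without that library its log2 fold change was 0.17 (SE 0.21, edgeR adjusted p = 0.953).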

How the results depend on the processing

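Of 88 alternative fits of the 6 markers tested, 85 gave an adjusted p and none of these was under 0.05; DESeq2 gave none for Ddx4, nor for Nr5a1 without the library labelled Ptk7 cKO 5. Cyp11a1 and Nr5a1 stayed below 0 and Gata4 above 0 in all of theirs (-1.03 to -0.59, -0.99 to -0.69 and 0.18 to 1.27), with adjusted p of 0.0994 to 0.71, 0.306 to 0.684 and 0.376 to 0.931. Star, Sox9 and Ddx4 changed sign in 15 fits: with single libraries left out they ranged from -0.047 to 0.17, -0.10 to 0.21 and -0.15 to 0.61, Ddx4 was -0.041 in voom, and Star was -0.020 in DESeq2 without the library labelled Ptk7 cKO 5. The number of genes called in all, 0 in edgeR (1379 at an unadjusted p under 0.05), was 1 with no filter on low counts, 186 in DESeq2, 188 in DESeq2 without that library, 7 under the replicate block and 0 to 2 with single libraries left out (1 without the library labelled Ptk7 cKO 5, 2 without control 1). The cause of these differences was not tested. The replicate block used the 4 libraries numbered 1 and 4 in both groups; the labels do not say that a number pairs libraries, and deviations of same-numbered libraries correlated at 0.0238. In it Cyp11a1 was -0.72, Nr5a1 -0.99 and Gata4 0.18. Scaling by DESeq2 size factors moved each of the 20 group means by less than 1 SD. The 2 sets of factors were nearly the same (for example 1.007 by TMM and 1.010 by DESeq2 in control 4), so this check could show little. Depth limits Insl3, Hsd3b1, Cyp17a1 and Dmrt1, whose counts per library did not exceed 7.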
